A study of Mus musculus with 6 samples.

Results

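The core genes of TGF-beta signalling were followed in the mouse progenitor line EML after loss and gain of KAI1, the tetraspanin membrane protein encoded by Cd82. They are 10 genes, chosen by name, and each was found as a single entry by RefSeq accession among 23146 entries: the ligand gene Tgfb1, the receptor genes Tgfbr1 and Tgfbr2, the signal transducers Smad2, Smad3 and Smad4, the inhibitory Smad7, and the corepressor genes Ski, Skil and Tgif1. The groups were KAI1 knockdown (n = 2 libraries) with its own control (n = 2), and KAI1 overexpression (n = 1) with its own control (n = 1). All 6 libraries came from EML cells kept in serum with added stem cell factor. The labels give bone marrow as tissue, basophil as cell type and BDF1 as strain, and call the control cells wild type. As background, EML cells were made immortal with a dominant-negative retinoic acid receptor, which all groups therefore share. How KAI1 was lowered or raised, and whether the replicates were separate cultures, is not stated in the labels. The p-values therefore cover no more than the variation among these libraries, and that variation may be technical. The question addressed is whether KAI1, which has been linked to TGF-beta1 and Smad3 signalling, goes along with a change in the mRNA of these genes.

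As background, TGF-beta1 is secreted in a latent form and, once released, binds the type II receptor TGFBR2, which recruits and phosphorylates the type I receptor TGFBR1. The active type I receptor phosphorylates SMAD2 and SMAD3, which join SMAD4 and enter the nucleus. SMAD7 blocks the receptor, and SKI, SNON (the product of Skil) and TGIF1 hold SMAD complexes in a repressive state. In blood formation TGF-beta1 is known as a brake on the cycling of stem and progenitor cells. Much of the pathway is controlled by phosphorylation and by release of the ligand, which RNA levels do not show.

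Promoter sequences are shown for Tgfbr1, Tgfbr2, Ski, Smad3 and Tgif1, whose levels differed between libraries by at least 3.07-fold, so that the letters can be set beside the values. The RefSeq promoter table (build GRCm38.p6) held windows for 6 of the 10 genes, namely these and Tgfb1, and 11 windows in all, because Tgfbr1 and Tgif1 have more than 1 start. The most upstream window of each gene is given 5′ to 3′ on the strand of the gene, as the 250 bases before the start, and capitals mark the motifs searched.
Tgfbr1 (chr4:47352972-47353221, plus strand): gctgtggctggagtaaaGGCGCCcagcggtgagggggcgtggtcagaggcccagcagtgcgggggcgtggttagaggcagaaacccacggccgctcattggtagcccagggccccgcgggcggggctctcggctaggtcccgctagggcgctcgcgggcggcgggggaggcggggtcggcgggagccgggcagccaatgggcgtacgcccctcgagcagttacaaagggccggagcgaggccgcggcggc
Tgfbr2 (chr9:116175364-116175613, minus strand): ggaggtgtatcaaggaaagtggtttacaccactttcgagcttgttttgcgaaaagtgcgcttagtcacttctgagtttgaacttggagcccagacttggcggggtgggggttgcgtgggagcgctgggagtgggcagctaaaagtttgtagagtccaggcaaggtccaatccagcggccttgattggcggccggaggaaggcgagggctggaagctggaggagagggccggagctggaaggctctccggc
Ski (chr4:155222536-155222785, minus strand): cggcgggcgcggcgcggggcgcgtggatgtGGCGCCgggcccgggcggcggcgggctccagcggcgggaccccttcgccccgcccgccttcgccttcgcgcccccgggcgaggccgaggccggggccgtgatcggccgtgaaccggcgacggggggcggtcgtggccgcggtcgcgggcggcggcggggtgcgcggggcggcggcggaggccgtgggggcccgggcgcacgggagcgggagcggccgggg
Smad3 (chr9:63757995-63758244, minus strand): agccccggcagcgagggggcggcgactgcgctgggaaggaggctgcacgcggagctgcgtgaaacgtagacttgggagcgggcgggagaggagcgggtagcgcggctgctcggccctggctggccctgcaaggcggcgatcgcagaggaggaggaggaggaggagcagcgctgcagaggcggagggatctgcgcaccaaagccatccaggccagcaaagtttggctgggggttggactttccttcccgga
Tgif1 (chr17:70853533-70853782, minus strand): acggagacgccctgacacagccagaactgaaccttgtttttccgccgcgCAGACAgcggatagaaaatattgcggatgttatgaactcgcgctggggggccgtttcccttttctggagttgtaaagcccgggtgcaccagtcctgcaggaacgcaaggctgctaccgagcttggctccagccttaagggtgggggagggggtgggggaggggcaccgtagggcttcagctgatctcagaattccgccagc
The motifs were CAGACA (the CAGA box bound by SMAD3 and SMAD4), GTCTAGAC (the palindromic SMAD site) and GGCGCC (a GC-rich SMAD site), each read on both strands over 250 bases before and 50 bases after the start. GGCGCC was found in the upstream windows of Tgfbr1 and Ski, against 11.9% of all 32851 windows. CAGACA was found in 3 of the 11 windows, which belong to Tgif1 and to the downstream start of Tgfbr1, against 21.0% of all windows. GTCTAGAC was in none of the 11 and in 0.213% of all windows. The Smad3 and Tgfbr2 windows held none of these letters, which says nothing about binding elsewhere.

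Values are the authors' RPKM, reads relative to transcript length and to mapped reads, so levels can be compared between genes. Depth was estimated from the steps between low values, at 9956000 reads in knockdown control replicate 2, the shallowest library, to 26040000 reads in the overexpression control, the deepest. The targeted gene Cd82 stood at 7.65 and 6.91 RPKM in the KAI1 knockdown, against 43.9 and 13.8 RPKM in its controls, and at 15.2 RPKM in the KAI1 overexpression, against 11.9 RPKM in its control. Cd82 itself did not pass the test used below for the core genes (log2 difference -1.64, SE 0.58, limma adjusted p = 0.83). In the overexpression pair it was 1.26-fold higher on the RPKM + 1 scale, below the 1.5-fold limit used there. A core gene that is not called is therefore no sign that KAI1 leaves it unchanged. The markers went in part with the labelled cell type. The mast cell and basophil genes Cpa3, Gzmb and Mcpt8 had lowest values of 2246, 223 and 116 RPKM over the 6 libraries. Fcer1a, a chain of the IgE receptor, had a value of 0 in the first knockdown library and in the second knockdown control. It stood at 24.2 RPKM in the first knockdown control and at 7.41 RPKM in the KAI1 overexpression. Prss34 reached at most 4.20 RPKM, and erythroid, neutrophil, megakaryocyte and progenitor genes were present as well. Of the neutrophil and monocyte markers, Mpo and Ctsg were picked after their values were seen. Mpo stood at 750 and 470 RPKM in the knockdown, against 7.84 and 538 RPKM in its controls. It stood at 45.8 RPKM in the overexpression, against 661 RPKM in its control. Ctsg was not low in the same libraries, at 1080 RPKM in the first knockdown control and 1295 RPKM in the overexpression. The libraries were uneven in these markers. The 10 mast cell and basophil markers summed to 3666 and 3230 RPKM in the KAI1 knockdown, against 20790 and 5396 RPKM in its controls, and to 11220 RPKM in the KAI1 overexpression, against 3033 RPKM in its control. The 7 erythroid markers found, of 8, summed to 2310 and 2653 RPKM in the knockdown, against 164 and 2777 RPKM in its controls, and to 681 RPKM in the overexpression, against 2177 RPKM in its control. These sums are carried by a few abundant genes, such as Cpa3, Mcpt4 and Hbb-bt. Fewer cells of a type and less RNA per cell cannot be told apart in such bulk samples. Knockdown control replicate 1 thus stands apart from replicate 2, and the knockdown differences of the core genes are given against both controls and against each.

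The ligand was the most abundant of these mRNAs in every library and Skil the least. Tgfb1 averaged 73.0 RPKM over the 6 libraries, above 94.5% of all entries, of which 8918 to 9777 were at 0 in a given library. Its lowest library, at 38.1 RPKM, lay above the highest of any other of these genes. Tgif1 followed at 13.4 RPKM, then Ski at 10.3, Tgfbr2 at 8.85, Smad4 at 6.46, Tgfbr1 at 5.10 and Smad2 at 4.79 RPKM. The ranges of neighbours among these 6 genes overlapped, so their order is not fixed by these libraries. Smad7 at 2.58 RPKM lay below Smad2 in each library, its range overlapped that of Smad3 at 1.20 RPKM, and Skil averaged 0.0967 RPKM. The plot of levels by library shows all 10 genes.

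**Figure D1:**
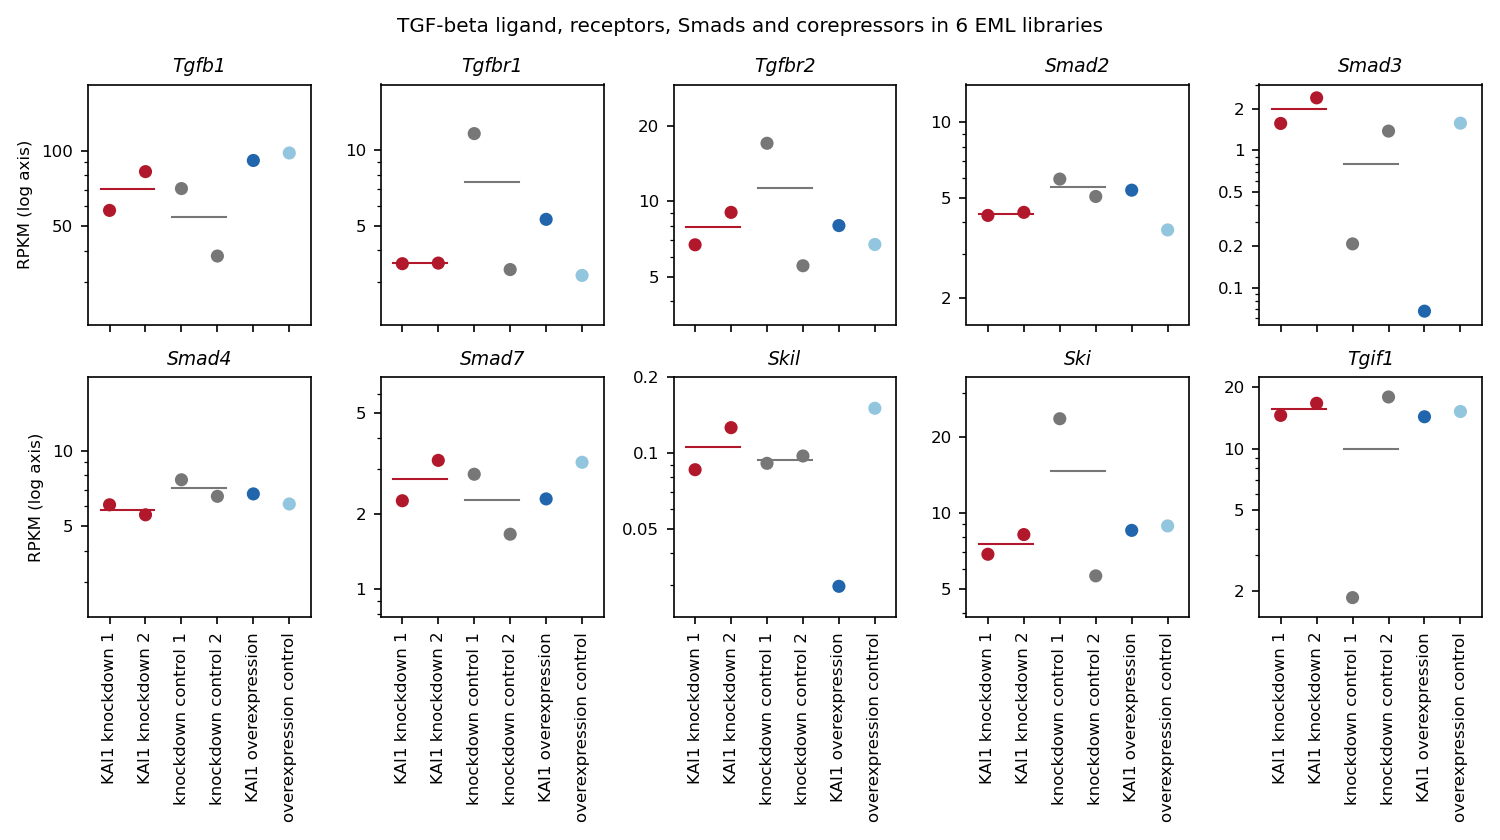
RPKM of each gene (log axis) in each library: KAI1 knockdown replicates 1 and 2, knockdown control replicates 1 and 2, KAI1 overexpression and its control, with lines at the means of the groups of 2. Knockdown control 1 lies apart from the other libraries in Tgfbr1 (11.6 RPKM), Tgfbr2 (17.0), Ski (23.7) and Tgif1 (1.85), and Smad3 is low there (0.209) and in the KAI1 overexpression (0.0677).

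In the KAI1 knockdown none of these genes passed the test, and the spread of the control pair was larger than the knockdown difference in 7 of the 9 genes that could be tested, the exceptions being Smad2 and Smad4. Skil lay below the filter of a mean of 1 RPKM. The test was limma's on log2(RPKM + 1), two-sided, with p-values adjusted by Benjamini and Hochberg over all 10113 entries tested. It called 0 of the 9 genes, with 0 at an unadjusted p below 0.05, beside 0.0297% of all entries called and 3.32% at an unadjusted p below 0.05. The knockdown libraries lay above both controls in 1 gene, where 21.5% of all entries did, and below both in 2, where 17.0% did. The median difference of the 9 genes was -0.25 on the log2 scale, against 0.03 over all entries. These shares are near the background and give no result about the group.

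Tgfb1, the ligand, stood at 57.8 and 82.5 RPKM in the knockdown, against 70.6 and 38.1 RPKM in its controls. The groups overlapped, and the means were 70.1 ± 17.4 RPKM in the knockdown and 54.3 ± 23.0 RPKM in the controls (SD, n = 2 each). The difference was 0.41 on the log2 scale (SE 0.41, limma adjusted p = 0.842). It was -0.03 against control replicate 1 alone and 0.84 against control replicate 2 alone, so its direction rests on the choice of control.

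Both receptor genes were highest in control replicate 1. Tgfbr1, the type I receptor, stood at 3.54 and 3.56 RPKM in the knockdown, against 11.6 and 3.35 RPKM in its controls. Tgfbr2, the type II receptor, stood at 6.72 and 9.04 RPKM in the knockdown, against 17.0 and 5.55 RPKM in its controls. The other control lay below both knockdown libraries. The differences were -0.71 (SE 0.56, limma adjusted p = 0.83) for Tgfbr1 and -0.30 (SE 0.55, limma adjusted p = 0.905) for Tgfbr2 on the log2 scale. Against control replicate 2 alone both turned positive, at 0.06 and 0.43. Without that replicate Tgfbr1 was lower by -1.48 and passed limma's test (adjusted p = 0.0335), in a fit that takes its spread from the knockdown pair, and Tgfbr2 at -1.03 did not (adjusted p = 0.0828).

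The receptor-activated Smads lay on opposite sides of their controls. Smad2 stood at 4.26 and 4.38 RPKM in the knockdown, against 5.94 and 5.06 RPKM in its controls. Both knockdown libraries lay below both controls, by a log2 difference of -0.29 (SE 0.22, limma adjusted p = 0.83), or -0.38 and -0.19 against control replicates 1 and 2 alone. Smad3 stood at 1.57 and 2.40 RPKM in the knockdown, against 0.209 and 1.38 RPKM in its controls. Both knockdown libraries lay above both controls, with means of 1.98 ± 0.592 RPKM in the knockdown and 0.793 ± 0.826 RPKM in the controls (SD, n = 2 each). The difference was 0.80 (SE 0.45, limma adjusted p = 0.83), and adding 1 to so low an RPKM before taking logs makes it smaller than the ratio of the values. It was 1.29 against control replicate 1 alone and 0.31 against control replicate 2 alone. Smad3 passed the filter only through the libraries in which it was higher. Its values rest on an estimated 103 and 239 reads in the knockdown, against 20 and 70 reads in the controls, from the estimated depth and a transcript length of 5.09 kb.

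Smad4, the partner of both, was the steadiest of the 10 genes, with a highest library only 1.38 times its lowest. It stood at 6.09 and 5.56 RPKM in the knockdown, against 7.66 and 6.59 RPKM in its controls. Both knockdown libraries lay below both controls, by -0.25 on the log2 scale (SE 0.22, limma adjusted p = 0.834), or -0.34 and -0.15 against control replicates 1 and 2 alone. Smad7, the inhibitory Smad and itself a known target of the pathway, stood at 2.25 and 3.25 RPKM in the knockdown, against 2.87 and 1.65 RPKM in its controls. These groups overlapped, and the difference was 0.21 (SE 0.33, limma adjusted p = 0.888). It was -0.06 against control replicate 1 alone and 0.49 against control replicate 2 alone, so its direction, too, rests on the choice of control.

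Among the corepressors, Ski and Tgif1 went opposite ways in control replicate 1. Ski stood at 6.84 and 8.19 RPKM in the knockdown, against 23.7 and 5.61 RPKM in its controls. Tgif1 stood at 14.6 and 16.7 RPKM in the knockdown, against 1.85 and 17.9 RPKM in its controls. In both genes the knockdown libraries lay between the controls. The differences were -0.59 (SE 0.68, limma adjusted p = 0.854) for Ski and 1.18 (SE 0.95, limma adjusted p = 0.83) for Tgif1 on the log2 scale. Against control replicate 2 alone they were 0.36 and -0.19. Without control replicate 2 they were -1.54 and 2.54 and passed (limma adjusted p = 0.0369 and 0.0192), where 10.3% of all entries passed as well. With the other replicates left out in turn the adjusted p reached 1 in Tgfbr1, Ski and Tgif1.

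Skil, whose product SNON is degraded upon TGF-beta signalling and whose gene is a known target of it, was hardly detected. It stood at 0.0858 and 0.126 RPKM in the knockdown, against 0.0910 and 0.0973 RPKM in its controls. That is an estimated 6 and 13 reads in the knockdown and 9 and 5 reads in the controls. The exact Poisson 95% intervals, which cover counting error only, all overlapped among these 4 libraries, from 0.0655 to 0.2103 RPKM in the highest, knockdown replicate 2, and from 0.0316 to 0.188 RPKM in the lowest, knockdown replicate 1. No difference was seen among these libraries, and with so few reads a modest one could be missed.

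**Figure D2:**
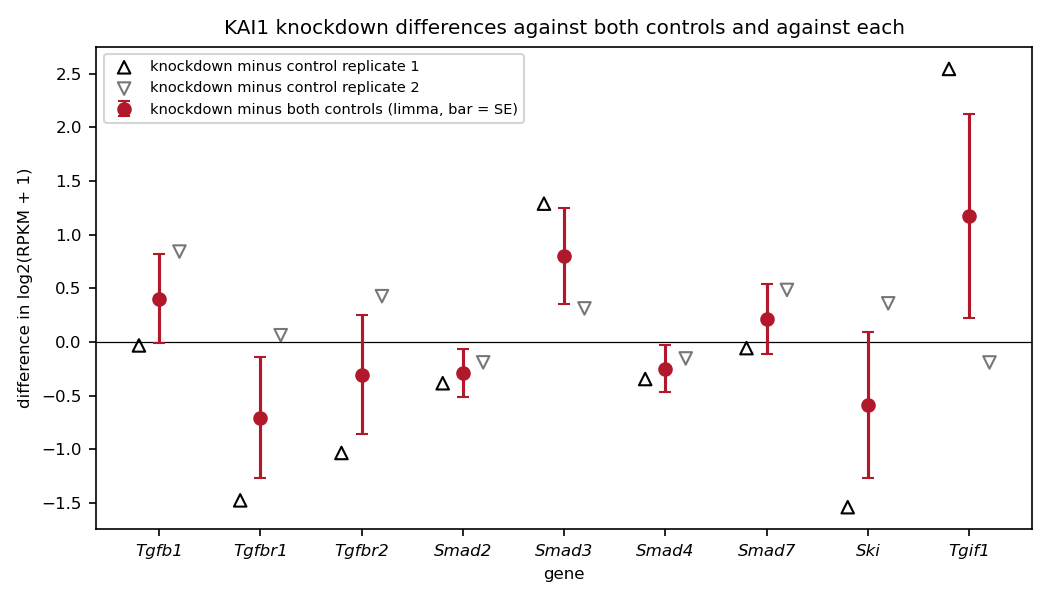
Difference in log2(RPKM + 1) between the KAI1 knockdown and both controls (circles, bars are the SE from limma), control replicate 1 alone (upward triangles) and control replicate 2 alone (downward triangles) for the 9 genes tested. In 6 of the 9 genes the triangles lie on opposite sides of 0, and Smad2, Smad3 and Smad4 keep 1 side.

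The controls of the knockdown arm differed from each other in several of these genes. Control replicate 1 was at least 2-fold above replicate 2 on the RPKM + 1 scale in 3 of the 9 genes, Tgfbr1 (2.90-fold), Tgfbr2 (2.75-fold) and Ski (3.73-fold), where 12.8% of all entries were. It was at least 2-fold below in 1, Tgif1, which was 6.66-fold higher in replicate 2, where 8.56% of all entries lay so. Smad3 was 1.97-fold higher in replicate 2. The knockdown libraries were at least 2-fold apart from each other in 0 of the 9 genes and in 2.53% of all entries. The mast cell and basophil marker sum was 3.9-fold higher in control replicate 1 than in replicate 2 and the erythroid sum 17-fold lower. Not every marker went with its sum. Mcpt8 was lower in control replicate 1 (160 RPKM against 389 RPKM), and the erythroid markers Gata1 (87.3 against 53.5 RPKM) and Epor (15.6 against 14.8 RPKM) were higher there. The other markers of both lists went with the sums. The part of these cell types in the differences of the core genes was not tested.

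In the overexpression arm Smad3 had the largest difference of the 10 genes. It stood at 0.0677 RPKM in the KAI1 overexpression, against 1.57 RPKM in its control, that is 23.2 times higher in the control. The values rest on an estimated 7 reads in the overexpression, against 208 reads in the control, and the Poisson 95% intervals were 0.0281 to 0.144 RPKM in the overexpression and 1.36 to 1.80 RPKM in the control. On the RPKM + 1 scale the control was 2.41-fold higher. Smad3 had a mean below 1 RPKM in this pair, so it is outside the count of genes that follows. With 1 library on each side no difference has a replicate check, and no test was made.

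In this pair 8 genes averaged 1 RPKM or more. Of these, 1 was higher by 1.5-fold or more and 0 were lower by as much, against 10.9% and 11.4% of all 9936 entries. Their median log2 ratio was 0.03, against 0.01 over all entries. Tgfbr1 stood at 5.31 RPKM in the KAI1 overexpression, against 3.18 RPKM in its control, 1.51-fold higher and close to the limit used. Tgfbr2 stood at 8.01 RPKM in the overexpression, against 6.74 RPKM in its control. Tgfb1 differed little, at 91.3 RPKM in the overexpression, against 97.8 RPKM in its control, and both values were above those of the knockdown arm. Smad2 stood at 5.36 RPKM in the overexpression, against 3.73 RPKM in its control, and Smad4 at 6.73 against 6.14 RPKM. Smad7 was lower, at 2.29 RPKM in the overexpression, against 3.20 RPKM in its control. Ski stood at 8.52 RPKM in the overexpression, against 8.87 RPKM in its control, and Tgif1 at 14.3 against 15.2 RPKM. Skil stood at 0.0295 RPKM in the overexpression, against 0.151 RPKM in its control, from an estimated 3 and 21 reads. The Poisson 95% intervals of Skil were 0.00582 to 0.0825 RPKM in the overexpression and 0.0925 to 0.228 RPKM in the control and did not overlap.

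Because SMAD2 and SMAD3 serve the same receptor, the balance of their genes was set side by side. Smad2 was 2.72 and 1.82 times as high as Smad3 in the knockdown, against 28.5 and 3.68 times in its controls, and 79.2 times in the overexpression, against 2.37 times in its control. The ratio of Ski to Smad3 was 4.37 and 3.41 in the knockdown, against 113 and 4.08 in its controls, and 126 in the overexpression, against 5.64 in its control. Both ratios were high in knockdown control replicate 1 and in the KAI1 overexpression, the libraries with the highest mast cell and basophil marker sums. These sums were carried in part by different genes. Mcpt4 stood at 9416 RPKM in that control and 240 RPKM in the overexpression, and Mcpt8 at 160 and 3908 RPKM. Cpa3 was abundant in each, at 6236 and 3895 RPKM. Both divide by Smad3, so they rise together wherever Smad3 is low. In these libraries Smad3 rests on an estimated 20 and 7 reads, so the size of the ratios is uncertain. The part of the cell types was not tested. The ratio of Smad4 to Smad2 stayed between 1.26 and 1.65 and that of Tgfbr2 to Tgfbr1 between 1.46 and 2.54 in the 6 libraries.

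The genes most like Tgfb1 over the 6 libraries, by the root mean square difference of centred log2(RPKM + 1) among 7208 entries that averaged 5 RPKM or more, were Stk11 (0.05), which encodes the kinase LKB1, Map3k11 (0.07), a kinase of the JNK pathway, and Midn (0.08). Those most like Smad3 were Prkar2b (0.11), a regulatory subunit of protein kinase A, Itga6 (0.14), an integrin chain, and Gpt (0.14), an alanine transaminase. Prkar2b stood at 55.4 and 59.0 RPKM in the knockdown, against 25.1 and 44.8 RPKM in its controls, and at 20.2 RPKM in the overexpression, against 46.7 RPKM in its control. Smad3 itself stood at 0.0677 RPKM in the overexpression, against 1.57 RPKM in its control. Adding 1 before taking logs compresses the low values of Smad3 much more than those of these genes. The likeness to Smad3 thus holds on that scale only and not for the ratios of the RPKM values. Likeness over 6 libraries that share 1 cell line is a description only.

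The wider pathway was read from 93 genes in 7 lists, all found, of which 37 lay below 1 RPKM in all 6 libraries. Tgfb1 was the only TGF-beta ligand gene with a sizeable level: Tgfb2 and Tgfb3 reached at most 0.0105 and 0.0225 RPKM. Of the bone morphogenetic protein genes, Bmp2, Bmp6 and Bmp8b were listed at 0 throughout, and Bmp4 and Bmp7 reached at most 0.140 and 0.110 RPKM. Nrros, which holds latent TGF-beta1 on myeloid cells, stood at 46.3 to 78.7 RPKM. The accessory receptors Tgfbr3 and Eng reached at most 0.370 and 0.221 RPKM. Nrros, the accessory receptors and these ligands were picked after their values were seen, to describe which parts of the pathway are present.

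In the knockdown limma called 0 of the 51 list genes tested, 2 (Acvr1b and Gadd45b) had an unadjusted p below 0.05, and the knockdown lay above both controls in 6 and below both in 8. Over all entries 3.32% had such a p, 21.5% lay above both controls and 17.0% below both, so these shares of the list genes were near or below the background. Acvr1b, an activin type I receptor that signals to SMAD2 and SMAD3, stood at 34.2 and 40.9 RPKM in the knockdown, against 12.8 and 22.3 RPKM in its controls (log2 difference 1.10, SE 0.34, limma adjusted p = 0.83). Ldlrad4, a membrane protein that keeps SMADs from the receptor, stood at 20.3 and 23.5 RPKM in the knockdown, against 0.742 and 12.8 RPKM in its controls (log2 difference 2.22, SE 1.04, limma adjusted p = 0.83). Gadd45b, a stress gene induced by TGF-beta, stood at 9.37 and 12.6 RPKM in the knockdown, against 3.29 and 5.10 RPKM in its controls (log2 difference 1.22, SE 0.30, limma adjusted p = 0.83). These 3, all higher, were the list genes in which the lowest library of 1 group was at least 1.5-fold above the highest of the other, and none passed. Against control replicates 1 and 2 alone, the differences were 1.48 and 0.72 for Acvr1b, 3.71 and 0.73 for Ldlrad4, and 1.47 and 0.96 for Gadd45b. Of the genes with the knockdown below both controls, Id2 and Tsc22d3 were picked after their values were seen. Id2, an inhibitor of basic helix-loop-helix factors, stood at 51.3 and 64.9 RPKM in the knockdown, against 379 and 92.2 RPKM in its controls (log2 difference -1.68, SE 0.73, limma adjusted p = 0.83). Tsc22d3, a leucine zipper gene, stood at 18.1 and 18.7 RPKM in the knockdown, against 72.8 and 21.9 RPKM in its controls (log2 difference -1.09, SE 0.61, limma adjusted p = 0.83). Against control replicate 2 alone these were -0.67 and -0.24. Acvr1b, Ldlrad4 and Gadd45b were named for the gap between the groups in these same libraries, so their differences are no independent support.

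By list, the knockdown medians were -0.07 for ligands and their storage (6 tested, 1 above both controls and 1 below), 0.15 for receptors (3 tested, 1 above and 1 below), -0.03 for the other Smads (2 tested, 0 and 0) and 0.01 for regulators of receptors and Smads (12 tested, 1 above and 2 below). They were 0.10 for nuclear partners (11 tested, 1 above and 0 below), -0.09 for the branch without Smads (6 tested, 1 above and 2 below) and -0.10 for response genes (11 tested, 1 above and 2 below). Over all entries the median was 0.03, with 21.5% above both controls and 17.0% below.

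In the overexpression arm 52 list genes were compared. By 2-fold or more, 6 were higher and 6 lower, against 4.92% and 5.21% of all entries. Furin, the protease that cleaves the TGF-beta1 precursor, stood at 159 RPKM in the KAI1 overexpression, against 18.5 RPKM in its control, 8.20-fold higher on the RPKM + 1 scale. In the knockdown arm Furin stood at 13.4 and 17.8 RPKM in the knockdown, against 185 and 14.3 RPKM in its controls, so that the high values were those of control replicate 1 and of the overexpression. Ltbp4, which binds latent TGF-beta in the matrix, stood at 3.08 RPKM in the overexpression, against 0.963 RPKM in its control. Smurf1, a ubiquitin ligase that targets receptors and Smads, stood at 5.03 RPKM in the overexpression, against 1.98 RPKM in its control. Zeb2, a SMAD-binding repressor, stood at 10.96 RPKM in the overexpression, against 2.25 RPKM in its control.

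Lower in the KAI1 overexpression were Smad1, the transducer of bone morphogenetic proteins, at 5.79 RPKM against 19.9 RPKM in its control, and Tgif2, the relative of Tgif1, at 0.475 RPKM against 2.06 RPKM in its control. Ldlrad4 stood at 10.4 RPKM in the overexpression, against 28.5 RPKM in its control. Of the response genes, Gadd45b stood at 1.73 RPKM in the overexpression, against 12.2 RPKM in its control, and Tsc22d1, a leucine zipper gene induced by TGF-beta, at 2.72 RPKM against 14.0 RPKM. Bhlhe40, a repressor of transcription, was higher, at 27.7 RPKM in the overexpression, against 9.89 RPKM in its control, and so was Id2, at 134 RPKM against 55.9 RPKM. Junb, a subunit of the AP-1 factor picked outside the naming rule after its values were seen, stood at 74.2 RPKM in the overexpression, against 167 RPKM in its control. Ltbp4 and Tgif2, like Smad3 in the knockdown arm, reached the mean asked by the filter only through the libraries in which they were higher. The filter thus favours a difference in these genes without setting its size. Ltbp4 and Tgif2 are included in the counts of higher and lower genes given above, and their place there is no support.

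**Figure D3:**
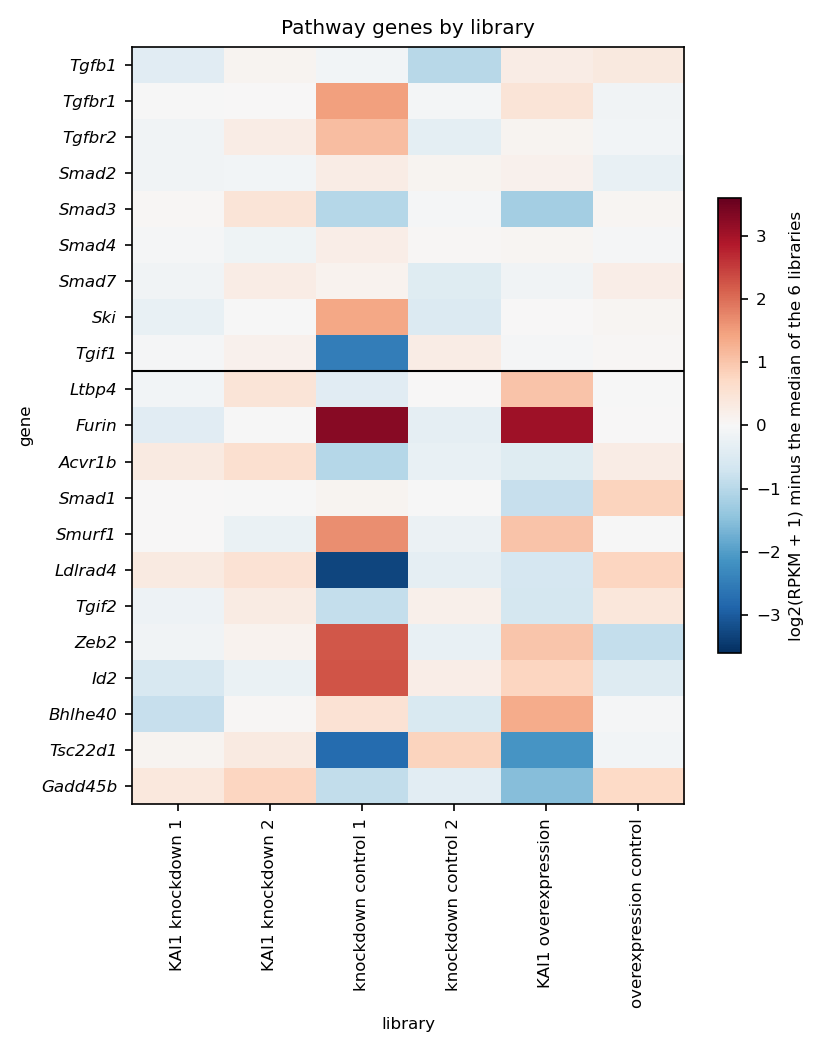
Log2(RPKM + 1) of 9 core genes (above the line, Skil left out) and of the 12 named genes of the other lists, minus the median of the 6 libraries, for each library. Knockdown control 1 and the KAI1 overexpression share high Furin, Zeb2, Smurf1 and Id2 and low Smad3, Ldlrad4 and Tsc22d1.

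These pathway genes were also compared between the controls of the knockdown arm, which share no library with the overexpression arm. Of the 12 list genes at least 2-fold apart in the overexpression pair, 9 (75%) differed in the same direction between control replicate 1 and replicate 2, the exceptions being Ltbp4, Smad1 and Junb. Of all 1007 entries that far apart in the overexpression pair, 750 (74.5%) did so, so the list genes were near the background. Of the core genes, Smad3 was low in both knockdown control replicate 1 and the overexpression, whereas Ski and Tgif1, far apart between the controls, differed by log2 ratios of only -0.05 and -0.08 in the overexpression pair.

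**Figure D4:**
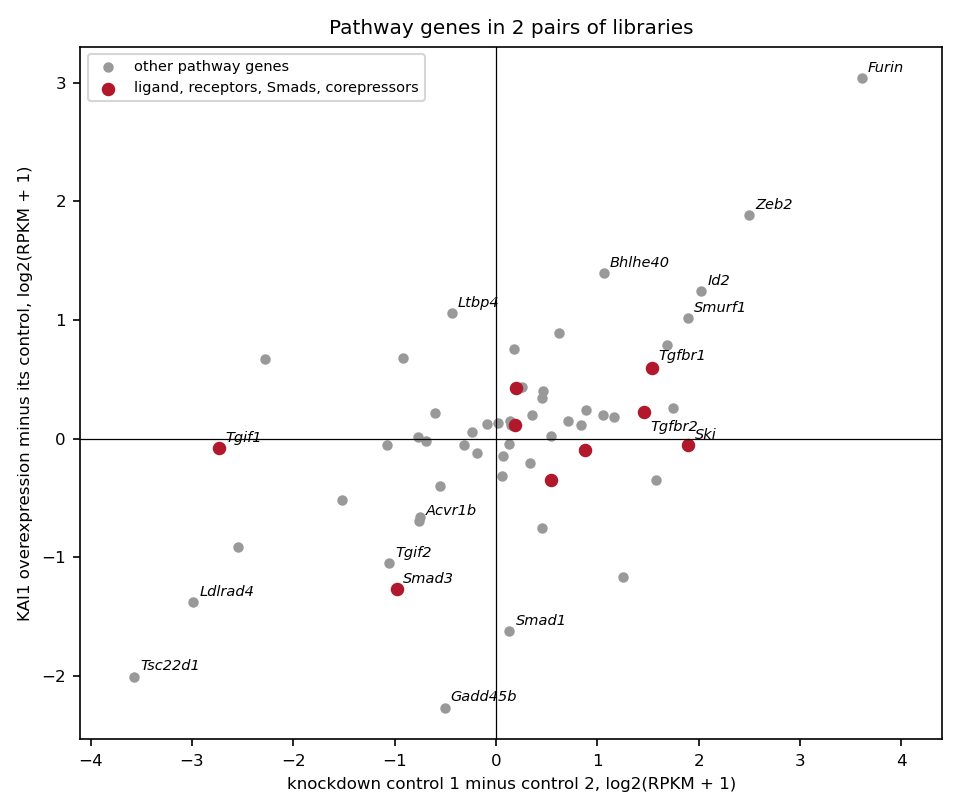
Difference in log2(RPKM + 1) between knockdown control replicates 1 and 2 (horizontal) and between the KAI1 overexpression and its control (vertical), for 9 core genes (red) and the other pathway genes measured in both pairs (grey). Furin lies far to the upper right and Tsc22d1 to the lower left, while Ski and Tgif1 lie near 0 on the vertical axis.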

How the data were processed

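RNA of 6 EML libraries was measured on the Illumina GAIIx. Each deposited table gives RPKM per transcript entry as the authors computed it, per the file headers. Build mm9, TopHat2 2.0.9, Cufflinks and Bowtie are named in the submitters' processing notes, without settings. RNA selection and strandedness are not given in the sources used here, so overlapping and antisense genes cannot be told apart. The design allowed for FPKM or RPKM; the headers say RPKM.

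Of 23170 rows, 24 repeated an accession and locus and were left out. RefSeq accessions were named with the RefSeq table (22840 entries) or GENCODE (125), and 181 stayed unnamed. Groups were taken from sample titles. The knockdown was tested with limma 3.58.1 (R 4.3.3, mean-variance trend) on log2(RPKM + 1) over entries averaging 1 RPKM or more. The code was run on simulated data whose spread between replicates was much smaller than that between the knockdown controls in many genes. That run checks the code and does not show what the test can detect in these data. The overexpression pair was described by size. Depth was estimated from the steps between low values, and reads per gene from depth and GENCODE transcript length, so they are approximate.

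The genes and lists were chosen with earlier results of these data known. From the lists, genes were named when the nearest libraries of the knockdown groups were at least 1.5-fold apart (without overlap) or the overexpression pair at least 2-fold apart, with a mean of at least 1 RPKM, at most 4 per list and comparison; genes outside this rule are said to be picked after their values were seen. Alternatives were other pseudocounts (0.1, 0.5), filters, scalings, a block for the replicate number and each replicate left out. The promoter windows, from another build than mm9, were used for sequence only.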

Additional observations from a re-analysis of the deposited data

How the results depend on the processing

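With 3 genes of all entries past limma's threshold in the knockdown, the count was 5 with a pseudocount of 0.1 and 20 with no filter on low values, and from 0 to 1045 with a replicate left out. The count of core genes past the threshold was 0, and from 0 to 3 with a replicate left out, the 3 being without control replicate 2. The count of core genes with groups that did not overlap was 3, and from 3 to 9 with a replicate left out. Groups overlap less readily once a library is removed, and the share over all entries was not computed for these settings. The higher counts therefore give no result about these genes. Those at least 1.5-fold apart in the overexpression arm were 1, and 2 with no filter, when Smad3 enters. With a replicate left out, the log2 differences ranged from -0.0315 to 0.84 for Tgfb1, -1.48 to 0.0633 for Tgfbr1, -1.03 to 0.43 for Tgfbr2, -0.0566 to 0.49 for Smad7, -1.54 to 0.36 for Ski and -0.19 to 2.54 for Tgif1, all of which changed sign, and from 0.31 to 1.29 for Smad3, -0.38 to -0.19 for Smad2 and -0.35 to -0.15 for Smad4, which did not. Under the other alternatives (pseudocounts, filters, scalings, block) none of the 60 differences of core genes changed sign or passed, with a lowest adjusted p of 0.817. In the overexpression arm all 110 values under other settings kept their sign; with a pseudocount of 0.1 low genes moved further from 0, the log2 ratio being -3.32 for Smad3 (against -1.27), -0.95 for Skil (against -0.16), -1.91 for Tgif2 (against -1.05), 1.58 for Ltbp4 (against 1.05), -2.74 for Gadd45b (against -2.27) and -1.77 for Smad1 (against -1.63). The replicate numbers of the knockdown arm are shared by the groups and the labels do not say that they pair the libraries; the deviations of same-numbered libraries had a correlation of -0.075 across genes. With the replicate block 4 genes of all entries passed. The causes were not tested. Depth limits Skil in all libraries and Smad3 in the KAI1 overexpression.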

Other observations

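Thbs1 and Ccn2, picked after their values were seen, had higher levels in both libraries of the overexpression arm than in those of the knockdown arm. Tgfbi, a matrix gene induced by TGF-beta, did not share this, with a value of 0 in all libraries but the KAI1 overexpression, at 0.0191 RPKM. Thbs1, which can release active TGF-beta1, stood at 0.0258 and 0.00849 RPKM in the knockdown, against 0 and 0.0167 RPKM in its controls, and at 1.12 RPKM in the overexpression, against 0.677 RPKM in its control. Ccn2 stood at 0 and 0.303 RPKM in the knockdown and at 0 in both of its controls, and at 0.451 RPKM in the overexpression, against 0.862 RPKM in its control. Of the stromal markers, Col1a1, Col1a2, Col3a1 and Thy1 lay at or below 0.0648 RPKM in every library of the knockdown arm and between 0.0882 and 1.63 RPKM in the overexpression arm. Summed over the 5 stromal markers the levels were 13.3 and 13.8 RPKM in the knockdown, against 49.9 and 11.5 RPKM in its controls, and 12.1 RPKM in the overexpression, against 22.3 RPKM in its control, most of it Pdgfrb. The part of such cells in the levels of Thbs1 and Ccn2 was not tested.

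Fkbp1a, which binds the type I receptor and keeps it inactive, stood at 321 and 250.1 RPKM in the KAI1 knockdown, against 145 and 307 RPKM in its controls, and at 238 RPKM in the KAI1 overexpression, against 247 RPKM in its control. Among the inhibitors of differentiation, Id3 stood at 6.06 and 8.31 RPKM in the knockdown, against 0.907 and 10.1 RPKM in its controls, and at 3.59 RPKM in the overexpression, against 7.68 RPKM in its control. In knockdown control replicate 1, where Id3 was lowest, Id2 was highest, at 379 RPKM. They did not mirror each other throughout. Knockdown control replicate 2, the highest in Id3, had Id2 at 92.2 RPKM, against 51.3 and 64.9 RPKM in the knockdown. These genes, too, were picked after their values were seen.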
